A study of Mus musculus with 13 samples.

Results

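The binding of Nkx6.1 was described over all 4094 regions of its deposited peak list, out of 23280 regions in the 4 peak lists of the series, which also cover Nkx2.2, Olig2 and Gli3. Every line of the Nkx6.1 list was taken, with the matching row of a table that holds coverage around each peak in 3 libraries. Cells were ventral neural progenitors made from mouse embryonic stem cells of a mixed background (Swiss Webster, 129 Sv and C57BL6/J), grown in suspension and then treated with 500 nM all-trans retinoic acid and 160 to 800 nM Smoothened agonist, which activates the hedgehog pathway. The YFP3.1 line gave Nkx6.1 ChIP replicate 1, and Rosa26-Gli1FLAG, derived from YFP3.1, gave replicate 2. Both were precipitated with a cocktail of DSHB, RD Systems and custom antibodies. The input in the table, chromatin sequenced without precipitation, served Nkx6.1 and Olig2 replicate 2 and came from Rosa26-Gli1FLAG with no antibody. The input labelled for Nkx6.1 replicate 1, from YFP3.1, is not part of the coverage table and was not analysed here. The 2 ChIP libraries differ in their cell line, so line and replicate cannot be told apart, and the agonist dose of a given library is not stated. The labels do not say whether the replicates were separate cultures.

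Nkx6.1 is a homeodomain transcription factor of the ventral neural tube. Sonic hedgehog signalling induces it in progenitors near the floor plate, where it acts mainly as a repressor of genes of neighbouring progenitor domains and is required for the making of motor neurons. Olig2, a basic helix-loop-helix factor, marks the motor neuron progenitors. Nkx2.2, another homeodomain factor, marks the domain ventral to them.

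The columns of the coverage table carry no library names, and its name lists 3 library codes. Following that order, the first and second blocks of columns are called ChIP library 1 and ChIP library 2 here, and the third is the input. Which ChIP library is replicate 1 is not stated in the sources used here. The place of the input was checked against the Olig2 table, where the third code is the same. At 59 pairs of Nkx6.1 and Olig2 peaks with centres a multiple of 25 bp apart, the bin width of the tables, all 8343 bins of the third blocks compared were equal (within 1e-06 units). The first blocks were equal in 10.9% of the bins and the second blocks in 7.80%. The third block is therefore 1 library in both tables, and the labels name 1 sample for both, the input. Coverage is in the units the authors deposited, scaled separately for each library in a way that is not stated. The smallest value above 0 was 0.522 units in ChIP library 1, 0.465 in ChIP library 2 and 0.392 in the input. These are the steps of single bins, and window means can lie below them. Read depth is unknown. Positions are on mm9, no genome or gene annotation of that build was used, and peaks are given by position with no gene named and no sequence printed.

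Nkx6.1 peaks stood well above the input in both ChIP libraries, and the input was close to flat. Coverage was averaged within 250 bp of each peak centre. Its median over peaks was 10.4 units in ChIP library 1 (quartiles 7.70 and 15.0), 5.19 in ChIP library 2 (3.06 and 8.91) and 0.672 in the input (0.411 and 0.971). In the flank, taken within 250 bp of the points 1500 bp to the left and right, the median was 0.634, 0.543 and 0.504 units in the same order. The 3 libraries thus lay near each other beside the peaks and far apart at the centres. The mean at the centre was 15.8 times the mean beside the peaks in ChIP library 1, 10.4 times in ChIP library 2 and 1.39 times in the input.

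**Figure D1:**
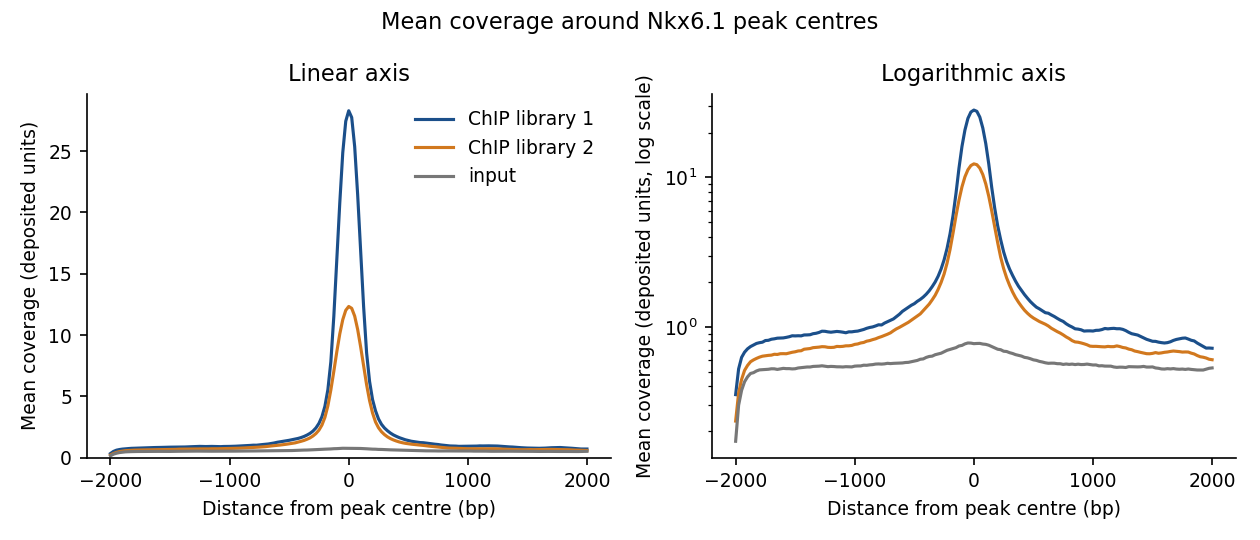
Mean coverage of ChIP library 1, ChIP library 2 and the input (deposited units) against distance from the centre of the 4094 Nkx6.1 peaks, on a linear and on a logarithmic axis. The curves reach 28.3, 12.3 and 0.771 units at the centre, and all 3 drop at the left edge of the table.

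Relative to the input, the median peak was 6.91-fold higher in ChIP library 1 and 3.73-fold higher in ChIP library 2, with 1 unit added to each value. On the log2 scale these medians were 2.79 (quartiles 2.38 and 3.30) and 1.90 (1.25 and 2.55). Here and below, 2 times the input refers to this ratio, with 1 unit added to each value. ChIP library 1 reached 2 times the input at 4092 of 4094 peaks (100% when rounded to 3 digits). ChIP library 2 did so at 3447 peaks (84.2%), and each of these also passed in ChIP library 1. Both libraries together passed at 3447 peaks, or 84.2% (exact binomial interval 83.0 to 85.3, counting error only). The remaining peaks were 645 that passed in ChIP library 1 alone and 2 that passed in neither, and no peak passed in ChIP library 2 alone. ChIP library 2 was at or below the input at 42 peaks. With 0.5 units added in place of 1, both libraries passed at 3688 peaks. The median log2 ratio for the mean of the libraries was then 2.80, against 2.35 with 1 unit. The ratio and the count thus depend on the amount added, and 1 unit exceeds the median input of 0.672. Peaks were called on ChIP signal, so these values describe the list and do not test it. No test over samples was made.

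Windows of the same width placed 1500 bp to either side gave the background in the same chromosomes and libraries. There the median log2 ratio to the input was 0.12 on the left and 0.10 on the right in ChIP library 1, and 0.04 on both sides in ChIP library 2. ChIP library 1 reached 2 times the input at 5.67% of the windows on the left and 5.32% on the right, and ChIP library 2 at 3.22% and 3.27%. Both libraries did so at 85 windows on the left (2.08%) and at 71 on the right (1.73%). On each side, 39 windows overlapped another Nkx6.1 peak of the list, and 24 of the 85 and 29 of the 71 were among them. The other 61 and 42 windows lay at no other peak of the list.

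**Figure D2:**
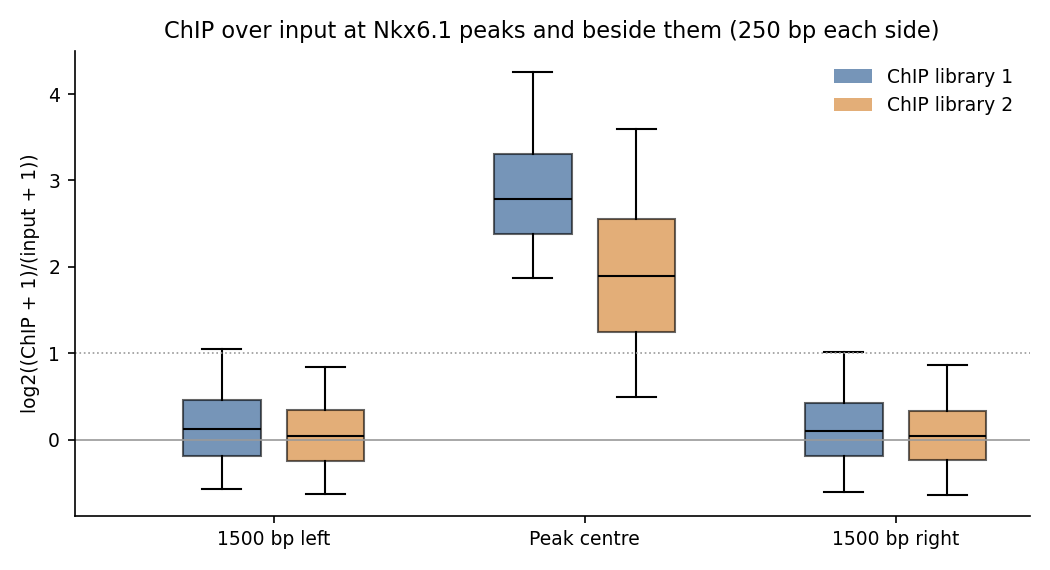
Log2 ratio of ChIP to input coverage (1 unit added to each) within 250 bp of the Nkx6.1 peak centre and of points 1500 bp to its left and right, for both ChIP libraries. Boxes span the quartiles with the median as a line and whiskers reach from the 5th to the 95th percentile of 4094 peaks. The dotted line marks 2 times the input.

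Nkx6.1 peaks were narrow and nearly symmetric. The mean profile of ChIP library 1 was 221 bp wide at 50% of its height above the flank, and that of ChIP library 2 was 275 bp wide. Single peaks showed the same order, with a median width of 217 bp (quartiles 204 and 239) in ChIP library 1 and 258 bp (240 and 293) in ChIP library 2. Width changed little with strength. From the weakest to the strongest quartile of peaks by ChIP over input, it went from 212 to 226 bp in ChIP library 1 and from 269 to 277 bp in ChIP library 2. Leaving out peaks with a neighbour within 2000 bp gave 220 bp and 273 bp. The libraries were size-selected at 275 to 700 bp, per the labels, and the length to which reads were extended is not stated.

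Mean coverage was nearly equal on either side of the centre. Over the 1000 bp to the right it was 1.04 times that over the 1000 bp to the left in both ChIP libraries, and 1.01 times in the input. The right side was somewhat higher on the slopes of the peak. At 200 bp it read 4.75 units against 4.20 on the left in ChIP library 1, and 3.65 against 3.29 in ChIP library 2. At 400 bp from the centre, ChIP library 1 had fallen from 28.3 units to 1.65 on the left and 1.75 on the right, and ChIP library 2 from 12.3 to 1.35 and 1.37. At 1000 bp, 0.931 and 0.937 units remained in ChIP library 1, still above the 0.854 of the flank. The low coverage at the left edge, where the input read 0.171 units at -2000 bp and 0.514 at -1800 bp, was not mirrored on the right (0.530 at 2000 bp). For this reason the flank was taken away from the edge.

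The point of highest coverage lay close to the listed centre in both ChIP libraries. It was within 50 bp of it at 94.5% of peaks in ChIP library 1 and at 78.5% in ChIP library 2, against 15.4% in the input. Peaks were called on ChIP signal, and the order of the list followed ChIP library 1. These shares therefore describe the list and do not test it. The summits of the 2 ChIP libraries were a median of 25.0 bp apart, which is 1 bin (quartiles 12.5 and 50.0). They were more than 150 bp apart at 200 peaks (4.89%). Among the 647 peaks that did not reach 2 times the input in both libraries, 12.8% had summits that far apart, against 3.39% of the 3447 that did. Profiles within 1000 bp of the centre had a median correlation of 0.92 between the ChIP libraries at a peak. It was over 0.8 at 3353 peaks (81.9%). With the input, the median profile correlation was 0.11 for either library.

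The ChIP libraries ranked peaks alike, but not closely. Across peaks, which share their libraries and are not replicates, the rank correlation of coverage was 0.64 and the Pearson correlation of log2(coverage + 1) was 0.69. In the windows 1500 bp to the left and right, the rank correlation of the same libraries was 0.30 and 0.32 and the Pearson correlation 0.55 and 0.56. With the input at the centre, it was 0.19 for ChIP library 1 and 0.17 for ChIP library 2. Both ChIP libraries put 46.4% of peaks in the same quartile of coverage, against 34.4% and 34.6% of the windows beside them, and 1.76% in opposite extremes, against 7.11% and 7.03%. Of the 410 peaks with the highest coverage in ChIP library 1, 233 (56.8%) were also among the top 410 of ChIP library 2. In the windows to the left and right the same share was 44.4% and 47.1%, so agreement at the top was only moderately higher at the peaks. Those windows are not free of signal. On each side 39 of them overlapped another Nkx6.1 peak, and 85 on the left and 71 on the right reached 2 times the input in both libraries.

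Coverage was higher in ChIP library 1 at 3747 peaks (91.5%) and higher in ChIP library 2 at 347. The median log2 ratio of the first to the second was 0.96 with an SD over peaks of 0.68, on log2(coverage + 1). The 5th and the 95th percentile of peaks were -0.18 and 2.03. In the windows beside the peaks the median was 0.09 and 0.05, so on this scale the gap between the libraries was larger at the peaks. The 1 unit added exceeds the median coverage of the flank (0.634 and 0.543 units in ChIP libraries 1 and 2) and shrinks ratios there. The order and lower limit of the list followed ChIP library 1, and the part of this in the gap at the peaks was not tested.

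**Figure D3:**
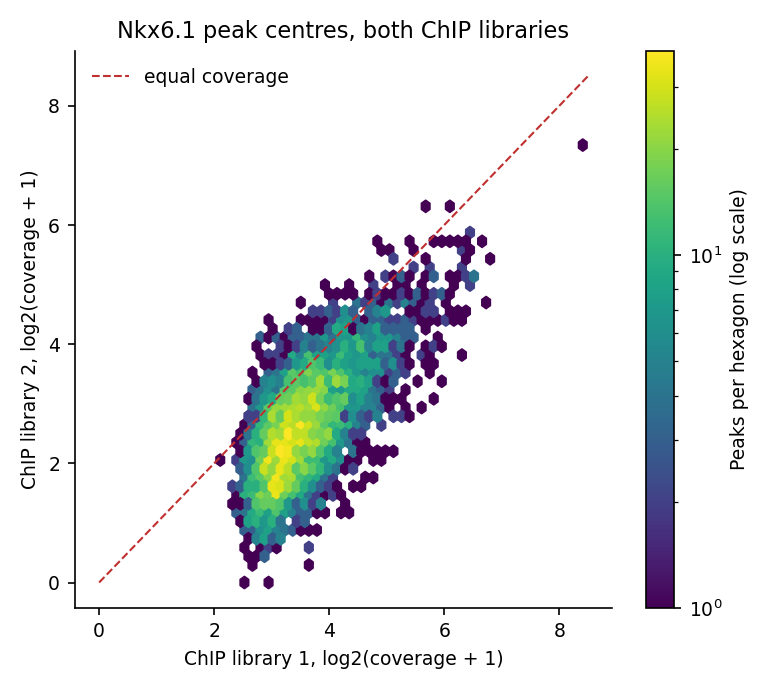
Coverage at Nkx6.1 peak centres in ChIP library 2 against ChIP library 1, both as log2(coverage + 1), with the number of peaks per hexagon in colour on a log scale. Most of the 4094 peaks lie below the dashed line of equal coverage, and the spread at low coverage is wide in ChIP library 2 and bounded from below in ChIP library 1.

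The order of the peak list and its lower limit followed ChIP library 1. Line number and coverage within 50 bp of the centre had a rank correlation of -0.97 in ChIP library 1, -0.56 in ChIP library 2 and -0.13 in the input. The lowest coverage at any peak centre was 3.30 units in ChIP library 1, while ChIP library 2 reached 0 at 2 peaks. The list was deposited under Nkx6.1 ChIP replicate 1, and how it was made from the libraries is not stated. Down the list, cut in 10 parts of equal size, the median of ChIP library 1 fell from 30.8 units in the first part to 6.19 in the last. The median of ChIP library 2 fell from 14.5 to 3.17 units and that of the input from 0.822 to 0.598. Peaks at 2 times the input in both libraries made up 99.0% of the first part and 70.9% of the last.

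**Figure D4:**
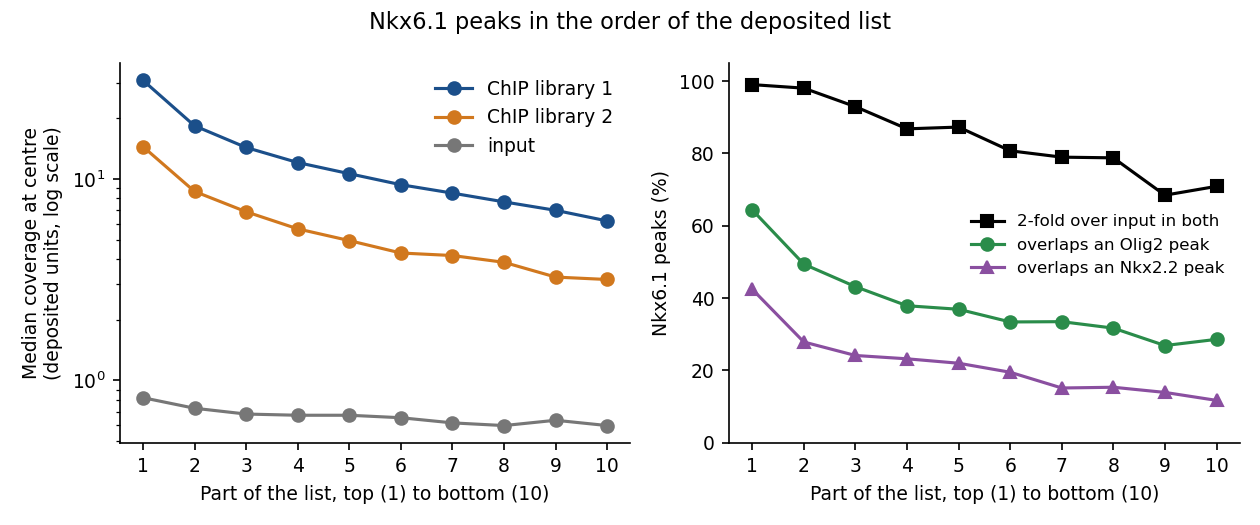
Nkx6.1 peaks in 10 parts of the deposited list, from top to bottom. On the left, the median coverage at the centre in ChIP library 1, ChIP library 2 and the input (log axis). On the right, the share of peaks at 2 times the input in both ChIP libraries, at an Olig2 peak and at an Nkx2.2 peak, which fall from 99.0% to 70.9%, from 64.4% to 28.6% and from 42.4% to 11.7%.

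The 10 peaks with the highest mean log2 ratio to the input lay between 5.02 and 6.80, all within the first 67 lines of the list. Of these, 8 overlapped peaks of both Olig2 and Nkx2.2, 1 overlapped Olig2 only and 1 overlapped neither. Over the whole list 13.5% of peaks overlapped both and 53.3% neither. The strongest, on chromosome 6 from 18204726 to 18205025, had 338.9 units in ChIP library 1, 161.2 in ChIP library 2 and 1.10 in the input. Both ChIP libraries were far above the input there, and the peak overlapped Olig2 and Nkx2.2. The next, on chromosome 2 from 101878353 to 101878652, had 84.0, 35.3 and 0.280 units in the same order, and the one on chromosome 10 from 84914419 to 84914718 had 112.5, 43.1 and 0.766. The fourth, on chromosome 5 from 140011619 to 140011918, had 67.8 units in ChIP library 1 and 73.9 in ChIP library 2 over 0.822 in the input. It was the only 1 of the 10 that was higher in ChIP library 2 and the only 1 that overlapped a Gli3 peak, and its flank was high, at 7.95 units in ChIP library 1.

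The other 6 of the strongest peaks had 56.7 to 93.9 units in ChIP library 1. The peak on chromosome 1 from 42115918 to 42116217 overlapped Olig2 only and had 86.2 units in ChIP library 1, 32.8 in ChIP library 2 and 0.430 in the input. The peak on chromosome 4 from 8794996 to 8795295 overlapped no peak of either factor and had 93.9, 34.5 and 0.766 units. Those on chromosome 3 from 86345280, chromosome 1 from 100086478, chromosome 11 from 36145076 and chromosome 13 from 94854321 had all 3 factors, with 87.5, 69.4, 56.7 and 83.9 units in ChIP library 1 and 55.1, 51.3, 52.2 and 43.8 in ChIP library 2. Profile correlations between the ChIP libraries at the 10 peaks were 0.93 to 1.00.

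Peaks nearest the median ratio to the input show regions of middle enrichment. The 5 nearest the median had 6.21 to 10.9 units in ChIP library 1, 4.06 to 9.53 in ChIP library 2 and 0.373 to 1.03 in the input. One of them, on chromosome 16 from 63501477 to 63501776, read 8.72, 4.06 and 0.373 units. The one on chromosome 13 from 73474188 to 73474487 read 6.21, 9.53 and 0.710, with ChIP library 2 the higher. Both ChIP libraries exceeded the input at each of the 5. They lay between lines 1459 and 3692 of the list. Of the 5, 4 overlapped Olig2 only and 1 overlapped neither Olig2 nor Nkx2.2, where 25.1% and 53.3% of the whole list did.

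Some regions were high in 1 ChIP library only. Peaks with at least 10 units in either library numbered 2254. The 5 of them with the largest ratio of ChIP library 1 to ChIP library 2 had 11.3 to 19.4 units in the first. ChIP library 2 read 0.288 to 1.22 units there and the input 0.373 to 1.14. Peak by peak, ChIP library 2 was below the input at some of the 5 and above it at others. Of the 5, 4 overlapped no Olig2 or Nkx2.2 peak, as did 53.3% of the whole list. Profile correlations between the libraries at the 5 were 0.04 to 0.88. The most uneven, on chromosome 6 from 121331916 to 121332215, had 11.3 units against 0.288, with 1.14 in the input, and the 2 profiles had a correlation of 0.04. On chromosome 16, the peak from 79231148 to 79231447 had 19.4 units against 1.22, with 0.579 in the input. The peak from 90625466 to 90625765 had 17.6 against 1.13, with 0.373 in the input.

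In the other direction the list limits the gap, since no peak lay below 3.30 units in ChIP library 1. The 5 peaks with the smallest ratio had 5.81 to 6.61 units in ChIP library 1 and 15.0 to 20.9 in ChIP library 2, and lay between lines 3123 and 3966 of the list. The most uneven, on chromosome 6 from 52140755 to 52141054, had 6.61 units against 20.9, with 0.859 in the input, and overlapped both an Olig2 and a Gli3 peak. Profile correlations at these 5 were 0.74 to 0.96. At the 5 with the largest ratio they were 0.04, 0.88, 0.33, 0.17 and 0.35, so only the 0.88 lay within that range.

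The input was not wholly flat at Nkx6.1 peaks. Its mean profile rose from 0.531 units beside the peaks to 0.771 at the centre, and centre coverage exceeded the flank at 2640 peaks (64.5%). At 750 bp to the left and right, windows of the same width exceeded the flank at 50.9% and 50.4% of peaks. The rise was broad, 650 bp wide at 50% of its height, where the ChIP profiles were 221 and 275 bp wide. Input at 2 times its own flank, with 1 unit added to each, was met at 69 peaks (1.69%, exact interval 1.31 to 2.13, counting error only). That count rests on few recorded steps and was 318 with 0.5 units added.

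Median ChIP coverage at those 69 peaks was 11.1 units in ChIP library 1 and 6.03 in ChIP library 2, against 10.4 and 5.19 at the other 4025. Their median log2 ratios to the input were 2.03 and 1.18, against 2.80 and 1.91, but these peaks were chosen for a high input, which lowers the ratio by construction. The same holds for the 2-fold level, reached in both libraries at 43 of the 69 (62.3%, against 84.6% of the rest). An Olig2 peak was present at 39 of them (56.5%, against 38.3% of the rest) and a Gli3 peak at 8 (11.6% against 3.33%). The highest input of all stood on chromosome X from 166424859 to 166425158, with 9.56 units in the input, 8.30 in ChIP library 1 and 14.6 in ChIP library 2. ChIP library 1 was below the input there, and the mean ratio of 0.19 was the lowest of the list. The next 4 by input, on chromosomes 18, 19, 11 and 7, had 3.03 to 3.16 units in the input and 6.27 to 12.2 units in either ChIP library.

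Nkx6.1 enrichment was higher at regions that also carried peaks of Olig2 or Nkx2.2. Overlap was counted from 1 shared bp, and 2183 Nkx6.1 peaks (53.3%) had neither, 331 had Nkx2.2 only, 1029 had Olig2 only and 551 had both. In ChIP library 1 the median log2 ratio to the input was 2.67 (quartiles 2.32 and 3.10) at peaks with neither, 2.91 with Nkx2.2, 2.85 with Olig2 and 3.18 (2.68 and 3.84) with both. In ChIP library 2 it was 1.60 (1.06 and 2.21), 2.17, 2.10 and 2.57 (2.00 and 3.31). Both libraries gave the same order, and the quartile ranges of neighbouring classes overlapped. The difference between peaks with both factors and with neither was 0.51 in ChIP library 1, 0.97 in ChIP library 2 and 0.73 for the mean of the libraries. Peaks are not replicates, so no test was made of it.

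**Figure D5:**
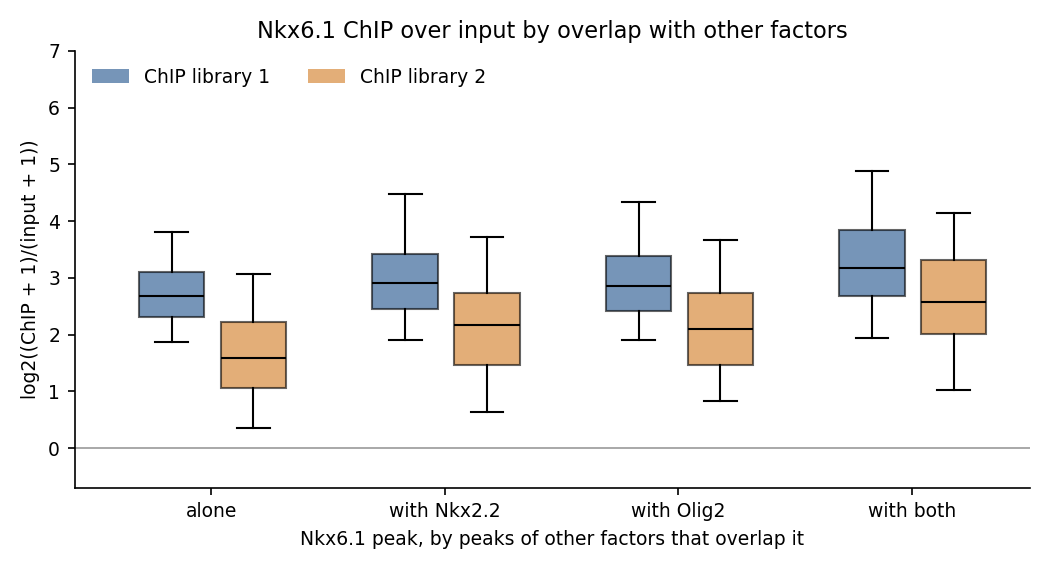
Log2 ratio of Nkx6.1 ChIP to input coverage (1 unit added to each) at Nkx6.1 peaks that overlap no other ventral factor (2183), Nkx2.2 (331), Olig2 (1029) or both (551), for both ChIP libraries. Boxes span the quartiles with the median as a line, and whiskers reach from the 5th to the 95th percentile. Medians rise from 2.67 to 3.18 in ChIP library 1 and from 1.60 to 2.57 in ChIP library 2 between the first and the last class.

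The share of peaks at 2 times the input in both ChIP libraries was 77.7% with neither factor, 87.9% with Nkx2.2, 90.9% with Olig2 and 95.3% with both, beside 84.2% over the whole list. The rank correlation of the libraries went from 0.53 to 0.60, 0.62 and 0.71 in the same order. Mean profiles were 213 and 267 bp wide in ChIP libraries 1 and 2 at peaks with neither and 237 and 286 bp wide at peaks with both. The input moved with the classes too, from a median of 0.579 units with neither to 0.840 with both, and its part in the differences of coverage was not tested. The ratios above are taken over it.

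The overlap with other factors also followed the order of the list, so the classes were compared within narrower ranges of coverage in ChIP library 1. In each of 10 parts of equal size by that coverage, peaks with Olig2 or Nkx2.2 had a higher median in ChIP library 2 than peaks with neither, by 0.13 to 0.57 on the log2 scale over input. In the lowest part the medians were 3.37 units at 86 shared peaks and 2.19 at the others, and in the highest they were 16.8 units at 325 and 11.4 at 85. ChIP library 1 was not level within the top part, at 31.8 units in shared peaks and 28.5 in the others, while in the lowest it read 5.85 and 5.61. Input was also higher at the shared peaks in all 10 parts, by 0.0934 to 0.187 units.

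Nkx6.1 peaks at a Gli3 peak, which was profiled in dorsal progenitors of another line made without the agonist, numbered 142 (3.47%). Their median log2 ratios were 2.89 in ChIP library 1 and 2.41 in ChIP library 2, against 2.79 and 1.88 at the other 3952 peaks. Input was 1.10 units (quartiles 0.803 and 1.38) at peaks with Gli3 and 0.654 at the others. Raised input, as defined above, was met at 8 of the 142 (5.63%, against 1.54% of the others), a count with the same dependence on the units added.

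Olig2 offers a comparison over the same input, which both sets of ratios share. At the 11747 Olig2 peaks the median log2 ratio to the input was 2.88 in library 1 and 2.44 in library 2 of that table, where Nkx6.1 had 2.79 and 1.90. There 99.8% of peaks passed 2 times the input in library 1 and 93.2% in library 2. Both libraries passed at 10941 Olig2 peaks (93.1%), where Nkx6.1 had 84.2%. Rank correlation between the libraries was 0.73 for Olig2 and 0.64 for Nkx6.1. The mean Olig2 profiles were 234 and 266 bp wide at 50% of their height, close to the 221 and 275 bp of Nkx6.1. The lists differ in length and how each was made is not stated, so these values stand side by side with no test.

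At 1383 Nkx6.1 peaks whose centre lay within 150 bp of an Olig2 peak, the 4 ChIP libraries could be read at the same places. Median coverage was 12.3 and 7.25 units in the Nkx6.1 libraries, 17.7 and 16.3 in the Olig2 libraries and 0.784 in the input. Across these places, the Nkx6.1 libraries had a rank correlation of 0.68 with each other and the Olig2 libraries 0.83. Between the factors it was 0.17 for the first libraries, 0.46 for the second libraries, and 0.22 and 0.24 across them. Each library thus ranked the shared places more like the other library of its own factor than like either library of the other factor.

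With 1 unit added to each value, the ratio of Nkx6.1 ChIP to input was similar from chromosome to chromosome. Over the 19 autosomes the median log2 ratio to the input ran from 2.67 to 2.88 in ChIP library 1 and from 1.67 to 2.09 in ChIP library 2. The share at 2 times the input in both ran from 75.6% on chromosome 15 to 89.4% on chromosome 13. Chromosome X held 51 peaks (1.25%), of which 44 (86.3%) passed, with medians of 2.83 and 1.95. Input beside the peaks was lower on X, at 0.243 ± 0.187 units (SD over 51 peaks) against 0.535 ± 0.261 over 4043 autosomal peaks, or 0.455 times. In the ChIP libraries beside the peaks the same ratio was 0.367 and 0.466. At the peak centres on X, median coverage was 7.75 units in ChIP library 1, 4.68 in ChIP library 2 and 0.299 in the input. The median of the autosomes was 10.3, 5.19 and 0.672 units in the same order. The 1 unit added is large beside the input on X, so it lowers the ratios to the input more there than on the autosomes.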

How the data were processed

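The authors deposited the Nkx6.1, Olig2, Nkx2.2 and Gli3 peaks as positions without scores, and coverage signal in 25 bp bins from -2000 to 2000 bp around them, per the file headers. Named in the submitters' processing notes are Bowtie2 2.2.4, HOMER and the mm9 build, with no word on which made which file. Pooling, filters and scaling are not given in the sources used here. Values within 1e-09 of 0 were set to 0. Coverage was averaged in windows, ratios to the input had 1 unit added to each side, and summits and single-peak widths were read after a mean over 3 bins. No test over samples was made, so results are descriptions, and functions were tested on simulated profiles. Python 3.11.15, numpy 2.4.6, pandas 2.3.3 and scipy 1.17.1 were used. Named peaks follow a rule: the 10 strongest over input, the 5 with the highest input, the 5 most uneven in each direction among peaks with at least 10 units, and the 5 nearest the median. The members, lists and rule were chosen with earlier results of these data known. The comparison by list order, within parts by coverage and at places shared with Olig2 was chosen after seeing the data. Motif searches and assignment to genes were planned and not run, as no genome or annotation of mm9 was used here. The Nkx2.2 coverage table was not used. Columns of other samples left out numbered 0.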

Additional observations from a re-analysis of the deposited data

How the results depend on the processing

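Of 30 recomputed values for 12 results, 22 stayed within the spread of the ChIP libraries, within 1.5 times for counts, or within the 95% interval for a correlation. The median log2 ratio to the input was 1.90 to 2.79 with 1 ChIP library alone and up to 2.97 in a window of 100 bp. The 2.97 lies above the medians of both libraries, so spread here is a distance from the main median of 2.35 and not the range between libraries. The SD of the 2 library medians was 0.63. The interval for a correlation counts peaks as independent, which they are not. Peaks at 2 times the input numbered 3447 to 4092 with 1 ChIP library alone. In both libraries they numbered 3688 with 0.5 units added, 3623 when scaled by the flank and 3741 in a window of 100 bp. The 22 include values from 1 ChIP library alone. Such medians could hardly leave the spread of the libraries they came from, so they are no check of stability. ChIP library 2 alone gave 3447, the count for both, since each of its peaks also passed in ChIP library 1. The other 8 moved. The rank correlation of the ChIP libraries was 0.60 and the Pearson correlation 0.66 in a window of 100 bp, and 0.51 and 0.60 without the weaker peaks below the median ratio. The count of peaks with raised input, 69, was 1 at 3 times the flank, 318 with 0.5 units added and 158 in a window of 100 bp, and is not stable. Equal bins of the input made up 92.2% when centres were matched to the nearest bin, which leaves bins apart by up to part of a step. The width without close neighbours was chosen after seeing the data. No paired analysis was possible because the columns carry no replicate numbers and the table holds 1 input. Motifs and genes were not run.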

Other observations

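By the median over peaks, chromosome 8 was the highest autosome in ChIP library 2 and in the input, and not in ChIP library 1. Beside the Nkx6.1 peaks of chromosome 8 (227 peaks), median coverage was 0.598 units in the input, 1.20 times the median of the 19 autosomes, where the other 18 ran from 0.420 to 0.551. ChIP library 2 read 0.620 units there, 1.14 times its median over autosomes, where the others ran from 0.493 to 0.598. ChIP library 1 read 0.621 units, 0.980 times its median, with 11 of the other 18 autosomes above it. At the peak centres the same held, with chromosome 8 at 1.27 times in ChIP library 2, above all other autosomes, and at 1.04 times in ChIP library 1, below 4 of them. By the mean beside the peaks it was still the highest in the input (0.618 units), but 6 of the other 18 autosomes exceeded its 0.720 units in ChIP library 2. Chromosome 8 was picked after its values were seen, and no cause was tested.

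Some peaks in the upper part of the list were far lower in ChIP library 2. The peaks on lines 316 and 317, both on chromosome 16, had 19.4 and 17.6 units in ChIP library 1 and 1.22 and 1.13 units in ChIP library 2, over 0.579 and 0.373 units of input. Coverage of ChIP library 2 beside them was 0.410 and 0.643 units, and its profile had a correlation of 0.88 and 0.33 with that of ChIP library 1, so a low peak of similar shape was present at line 316.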
